A study of Homo sapiens with 3 samples.

Results

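The genes described here are 10 genes of the nuclear end of the Wnt/beta-catenin pathway: AXIN2, NKD1, NOTUM, RNF43, ZNRF3, LGR5 and ASCL2, which beta-catenin is known to activate, and the factors TCF7, LEF1 and TCF7L2. They were chosen by name, as all non-control array probes that carry these gene names, and they are 10 of the 43317 gene names on the array, with 17 probes in all. The arrays were Agilent 1-colour gene expression arrays of HCT116 cells, an established colorectal cancer cell line, and the profiling addressed which genes depend on SMARCA4 (BRG1), an ATPase that drives chromatin remodeling by SWI/SNF complexes. SMARCA4-KD1 and SMARCA4-KD2 cells (below, KD1 and KD2) were transfected with small interfering RNA against SMARCA4, and NC cells with a scrambled negative control. All 3 groups were grown in McCoy's medium with serum and transfected with Lipofectamine, and there was 1 array for each. HCT116 cells carry a stabilizing mutation in beta-catenin, which is known to keep the pathway active, also in the NC cells. SMARCA4 siRNA-1, an interfering RNA of the knockdown, is shown because it defines what the cells received, and no letter in it is marked by capitals. Which of the knockdown groups received it, which strand is printed and the time after transfection are not given in the sources used here.
SMARCA4 siRNA-1: ucgcuuugguucgcaaauc

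When Wnt ligands bind their receptors, or when the complex that degrades beta-catenin is defective, beta-catenin accumulates and enters the nucleus, where it binds TCF/LEF factors on DNA and turns them from repressors into activators. Many of the genes activated in this way encode inhibitors of the pathway, and in the intestine the pathway maintains the stem cells of the crypt. Activation of this pathway by mutations in APC or beta-catenin is a usual early step of colorectal cancer.

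SMARCA4 is named in the sample titles and the transfection protocol, whereas the treatment field names PRMT1, and therefore both genes were read first. The numbering of KD1 and KD2 was taken from that treatment field. The SMARCA4 signal was 3960.2 in KD1, 4129 in KD2 and 14026 in NC. SMARCA4 was thus lower on both knockdown arrays, with 26.6% and 28.8% of the NC level left. The PRMT1 signal was 9801 in KD1, 10147 in KD2 and 7683 in NC, and so PRMT1 was somewhat higher than NC on both knockdown arrays. Signals are the background-subtracted intensities of a spot, while fold changes compare values scaled by the 75th percentile of the array's signals, 237 in KD1, 228 in KD2 and 223 in NC. The comparisons share the NC array, so their fold changes are given side by side and are not independent. KD1 and KD2 were hybridised on slide 1 and NC on slide 2, and so batch and group cannot be told apart. Because no condition had a replicate, no difference was tested, and precision is limited by the number of arrays. Differences were instead set against the error that the extraction software gives for a fold change, about 0.20 on the log2 scale, and against a threshold of 1.5-fold, which is 0.58 on the log2 scale. This error covers the reading of spots on an array only, and not differences between separate cell cultures. As a further scale, the KD1 and KD2 arrays, which differ in their interfering RNA, differed from each other by a median of 0.12 and by less than 0.49 for 95% of 19497 genes measured on all arrays. Both arrays were on slide 1, so this scale leaves out any difference between slides, while each comparison with NC crosses slides.

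The labelled cell type was also checked. Of 12 markers of colon epithelium, 8 were well above background on at least 1 array, with KRT19 the brightest probe, and CDH17, VIL1, LGALS4 and CEACAM5 were not well above background on any. The summed level of these epithelial markers, in multiples of the 75th percentile of the array, was 1681 in KD1, 1710.2 in KD2 and 1657 in NC. KRT20, a keratin of differentiated colon cells, was the only epithelial marker at least 1.5-fold apart from NC in both knockdowns, with log2 fold changes of at least 1.1 and 1.49 since its NC spot was not well above background. Of the markers of other cell types, COL1A1 alone of 5 fibroblast markers was well above background on all 3 arrays. So were VWF and CDH5 of 3 endothelial markers and PTPRC and CD14 of 3 leukocyte markers. Signal at these probes does not show that such cells were present. PECAM1, CD3E, COL1A2, COL3A1, DCN and LUM were not well above background on any. VWF and CDH5 had log2 fold changes of 0.13 and 0.23 in KD1 and of 1.08 and 0.70 in KD2. These probes were dim. The log2 level of VWF relative to the 75th percentile was -3.09 in KD1, -2.13 in KD2 and -3.21 in NC. The lowest values well above background on these arrays were -3.81, -3.81 and -3.66. The summed levels were 2.02, 1.70 and 1.56 in KD1, KD2 and NC for COL1A1, and 0.312, 0.496 and 0.273 for VWF and CDH5, with CDH5 the brighter probe in NC. For PTPRC and CD14, with CD14 the brighter probe in NC, they were 0.438, 0.363 and 0.446. The part of these levels in the results below was not tested.

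Of the 10 genes, 6 were well above background on all 3 arrays, namely AXIN2, NKD1, RNF43, ZNRF3, TCF7 and TCF7L2, and NOTUM, LGR5, ASCL2 and LEF1 were not well above background on any. Among the 6 measured genes, NKD1 and RNF43 were at least 1.5-fold higher in KD1 than in NC, 2 genes of 6, where 11.2% of 22620 genes passed the same rule. In KD2 only NKD1 did so, 1 gene of 6, against 10.1% of all genes. None of the 6 was at least 1.5-fold lower in KD1 or in KD2, where 12.3% and 9.77% of all genes were. NKD1 therefore was the only gene of the set past the threshold in both knockdowns, and 0 genes were lower in both, beside 6.35% and 8.05% of all genes. With 6 genes, 1 gene is already 16.7%, so these counts do not set the genes apart from the background. Over the 6 measured genes the log2 fold changes had a median of 0.26 in KD1 and 0.13 in KD2, beside 0.02 and 0.04 over all genes. In bulk samples such as these, fewer cells that express a gene and less RNA per cell cannot be told apart.

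**Figure D1:**
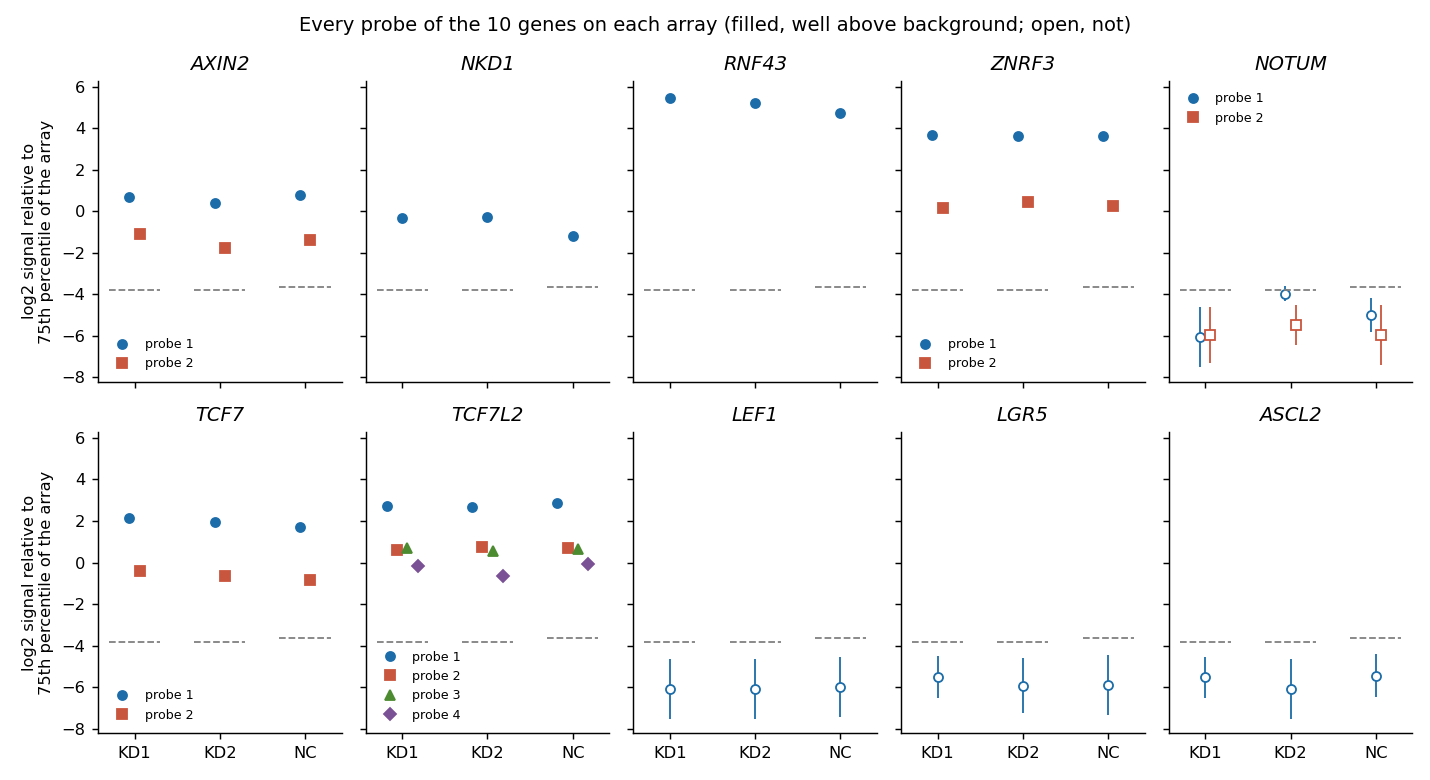
Log2 signal relative to the 75th percentile of the array (vertical axis) for each of the 17 probes of the 10 genes on the KD1, KD2 and NC arrays, with vertical lines for the error of the extraction software, which are shorter than the symbol for bright spots, and dashed lines at the lowest value well above background on each array. The 12 filled probes lie above the dashed lines on every array, the 5 open probes of NOTUM, LEF1, LGR5 and ASCL2 lie below them, and the relative level of NKD1 was -0.30 and -0.26 in the knockdowns and -1.20 in NC.

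The first group of genes encodes feedback inhibitors, which beta-catenin activates and which dampen the pathway at different steps. NKD1, which binds and inhibits Dishevelled, had a signal of 192 in KD1, 191 in KD2 and 97.2 in NC. Both knockdown arrays were thus higher than NC and close to each other. Its only probe, on chromosome 16 of hg19 from 50667885 to 50667944, was 1.86-fold higher in KD1 and 1.92-fold higher in KD2, log2 fold changes of 0.90 and 0.94 with errors of 0.21. Among all genes, 95.5% had a lower log2 fold change than NKD1 in KD1 and 96.6% in KD2. With another background correction, limma's normexp, the log2 fold changes of NKD1 were 0.65 and 0.67. NKD2, the paralog of NKD1, had a signal of 5684 in KD1, 5588 in KD2 and 3661 in NC. It was also higher on both knockdown arrays, with log2 fold changes of 0.55 and 0.58 that lay just under the threshold.

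RNF43 and ZNRF3 are related membrane-bound ubiquitin ligases that remove Frizzled receptors from the cell surface. RNF43 had a signal of 10550.3 in KD1, 8378 in KD2 and 6017 in NC. Both knockdown arrays were higher than NC, and KD1 was the higher of them. The RNF43 probe, on chromosome 17 from 56431063 to 56431122, was 1.65-fold higher in KD1 and 1.36-fold higher in KD2, log2 fold changes of 0.72 and 0.45. The knockdown arrays differed from each other by 0.28 at this probe, more than the error of 0.20. The brighter ZNRF3 probe, on chromosome 22 from 29449612 to 29449671, had a signal of 3029.6 in KD1, 2784 in KD2 and 2725 in NC. Its log2 fold changes of 0.07 and 0.00 were within the error. The other ZNRF3 probe, 3249 bases away, had a signal of 267 in KD1, 313 in KD2 and 265 in NC. Its log2 fold changes were -0.07 and 0.21, of which the latter was just beyond the error, which also rounds to 0.21. ZNRF3 thus showed no difference beyond the error by its brighter probe, unlike RNF43, while the difference between these paralogs was not tested.

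AXIN2 encodes a scaffold of the complex that degrades beta-catenin, and its mRNA is widely used as a readout of beta-catenin activity. Its brighter probe, on chromosome 17 from 63525389 to 63525448, had a signal of 388 in KD1, 306 in KD2 and 384 in NC. KD2 was the lowest of the 3 arrays, while KD1 and NC lay close together. The log2 fold change was -0.07 in KD1, within the error of 0.20, and -0.36 in KD2, beyond the error of 0.21 but under the threshold. The other AXIN2 probe, 28999 bases away, had a signal of 109.7 in KD1, 67.3 in KD2 and 86.2 in NC. This probe had log2 fold changes of 0.26 and -0.39 and so put KD1 above NC and KD2 below it. By both probes AXIN2 was lower in KD2 than in NC, while for KD1 the probes disagreed in direction. At the second probe the knockdown arrays differed by 0.65, more than the 0.49 that bounded 95% of genes. AXIN1, the paralog of AXIN2 that is not known as a target, had a signal of 208 in KD1, 194 in KD2 and 167 in NC, with log2 fold changes of 0.24 and 0.19.

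NOTUM encodes a secreted enzyme that inactivates Wnt ligands by removing their lipid. It had 2 probes that share 49 of their bases on chromosome 17, and neither was well above background on any array. The first had a signal of 3.54 in KD1, 14.6 in KD2 and 7.0 in NC, and the other had 3.81, 5.13 and 3.60. On the KD2 array, 97.7% of the 308 negative control spots were dimmer than the first probe, but the lowest signal well above background on that array was 16.4. No fold change was therefore computed for NOTUM.

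The stem cell genes of the set were not well above background on any array. LGR5, an R-spondin receptor that marks crypt stem cells, had a signal of 5.20 in KD1, 3.71 in KD2 and 3.73 in NC. ASCL2, a transcription factor of crypt stem cells, had a signal of 5.14 in KD1, 3.32 in KD2 and 5.10 in NC. Each gene had 1 probe, and between 30.2% and 96.1% of the negative control spots of the same array were dimmer than these spots. The paralogs of LGR5 were measured: LGR4, the widely expressed R-spondin receptor, had a signal of 395 in KD1, 381 in KD2 and 695 in NC. LGR4 was lower on both knockdown arrays, 1.87-fold in each, with log2 fold changes of -0.90 and -0.90 and an error of 0.20. LGR6, another R-spondin receptor, had a signal of 177 in KD1, 195 in KD2 and 126 in NC. Its log2 fold changes were 0.41 and 0.60, so that LGR6 was higher and LGR4 lower on both knockdown arrays.

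Among the TCF/LEF factors, which bind the same DNA motif, LEF1 was not well above background, with a signal of 3.48 in KD1, 3.33 in KD2 and 3.54 in NC. At most 48.7% of the negative control spots of the same array were dimmer, so that LEF1 could not be told from background. TCF7, which is itself a target of beta-catenin in the intestine, had a signal of 1054 in KD1, 891 in KD2 and 727 in NC at its brighter probe, on chromosome 5 from 133483237 to 133483296. Both knockdown arrays were higher than NC, and differed from each other by 0.19, within the error of 0.20. The log2 fold changes were 0.45 and 0.26, beyond the error of 0.20 and under the threshold. The second TCF7 probe, 4729 bases away, had a signal of 179 in KD1, 147 in KD2 and 125 in NC, with log2 fold changes of 0.44 and 0.20, of which the latter was within the error of 0.21. Both probes of TCF7 were thus higher than NC beyond the error in KD1, but only the brighter was in KD2.

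TCF7L2 encodes TCF4, the main partner of beta-catenin in the intestinal epithelium, and its transcripts are known for extensive alternative splicing. It had 4 probes, spread over chromosome 10 from 114724321 to 114926037. The brightest of them (114905803 to 114905862) had a signal of 1575 in KD1, 1441 in KD2 and 1637 in NC. NC was the highest array, with log2 fold changes of -0.14 and -0.22, of which only the latter was beyond the error of 0.20. The second and the third probe had log2 fold changes of -0.09 and 0.06 in KD1 and of 0.04 and -0.11 in KD2. The dimmest, from 114911485 to 114911544, had a signal of 211 in KD1, 145 in KD2 and 211 in NC. Its log2 fold changes of -0.08 and -0.57 made KD2 the low array, although none of the other probes of TCF7L2 showed a difference of this size. Which exons these probes cover is not given in the sources used here. The remaining member of the family, TCF7L1, a factor known mainly as a repressor, had a signal of 694 in KD1, 768 in KD2 and 420.1 in NC. TCF7L1 was higher on both knockdown arrays, 1.56-fold and 1.79-fold, log2 fold changes of 0.64 and 0.84. Of the TCF/LEF family, TCF7 by its brighter probe and TCF7L1 were therefore higher than NC on both knockdown arrays, TCF7L2 was lower or within the error by its brightest probe, and LEF1 gave no measurement.

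**Figure D2:**
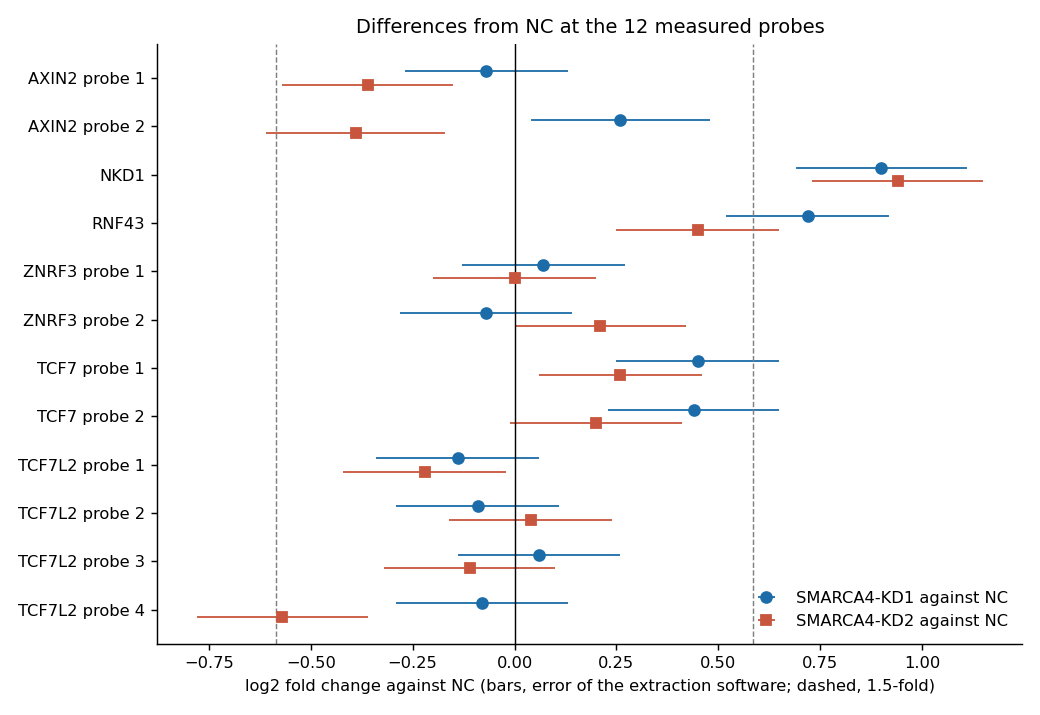
Log2 fold change against NC (horizontal axis) at each of the 12 probes well above background, for KD1 (circles) and KD2 (squares), with bars for the error of the extraction software and dashed lines at 1.5-fold. The NKD1 points lie to the right of the upper dashed line in both knockdowns, at 0.90 and 0.94, and the AXIN2 probe 2 points lie on opposite sides of 0, at 0.26 and -0.39.

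Over the 12 measured probes, log2 fold changes lay between -0.14 and 0.90 in KD1, where 7 probes were higher and 5 were lower than NC. In KD2 they lay between -0.57 and 0.94, with 6 probes higher, 5 lower and the brighter ZNRF3 probe at 0.00 when rounded. By the brightest probe of each gene, NKD1, RNF43 and TCF7 were higher than NC by more than the error in both knockdowns, 3 genes of 6, where 25.2% of the 19497 genes measured on all arrays were. In KD1 alone this count was 3 genes of 6 beside 31.6% of all genes, and in KD2 it was 3 of 6 beside 32.1%. Lower by more than the error were 0 of 6 in KD1, beside 30.3% of all genes, and AXIN2 and TCF7L2, 2 of 6, in KD2, beside 27.2%. No gene of the set was lower by more than the error in both, while 22.9% of all genes were. The knockdown arrays differed from each other by less than 0.49 for 95% of genes. By the brightest probe of each gene, the differences of NKD1 in both knockdowns and of RNF43 in KD1 were larger than this. Those of the other genes were smaller by that probe, but the dimmest TCF7L2 probe, at -0.57 in KD2, also differed by more.

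**Figure D3:**
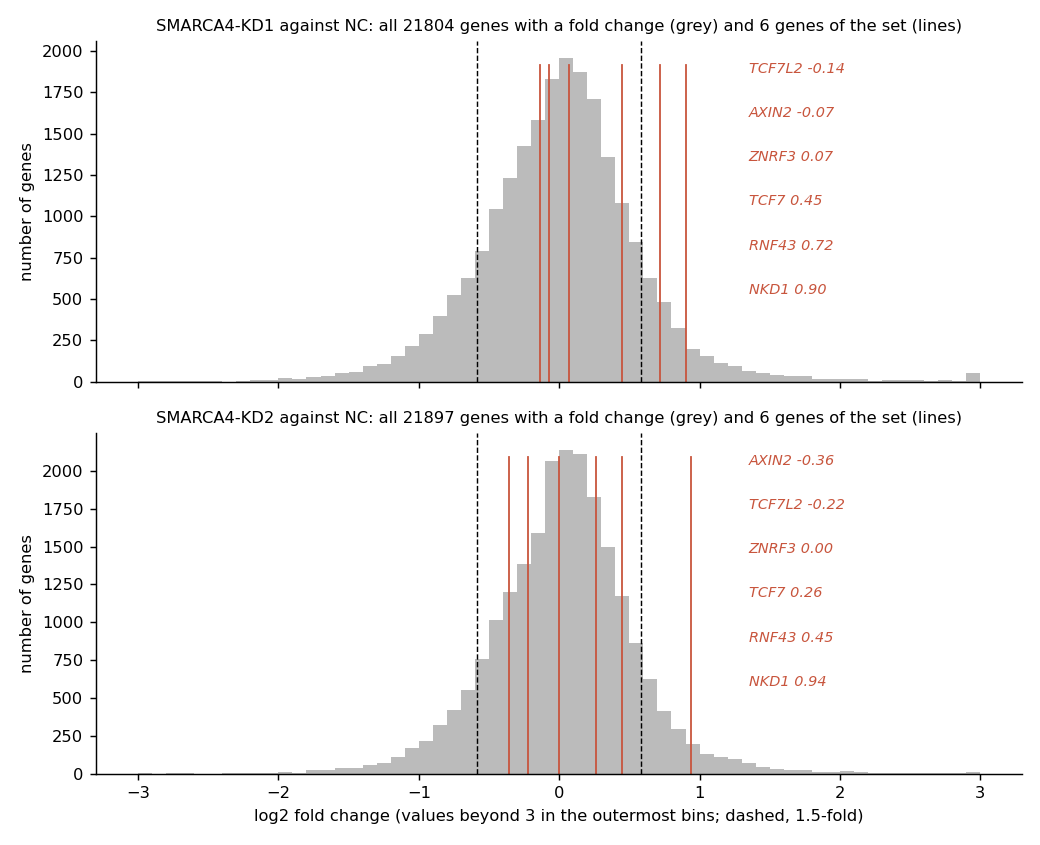
Distribution of log2 fold changes against NC (horizontal axis) over all genes (vertical axis, number of genes; upper panel, KD1; lower panel, KD2), with red lines at the 6 measured genes, their values beside them, and dashed lines at 1.5-fold. The lines of AXIN2, TCF7L2, ZNRF3 and TCF7 fall between the dashed lines in both panels, and the line of NKD1 lies where 95.5% of genes in KD1 and 96.6% in KD2 have lower values.

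To show what lies next to the starts of these genes, 250 bases before each start were read from RefSeq's promoter table (GRCh38.p14), which held windows for 4 of the 10 genes: RNF43, TCF7, TCF7L2 and LEF1. The windows were searched on both strands for the core motif of TCF/LEF factors, CTTTG followed by 2 bases that are each A or T, in all its 4 spellings. Of the 8 windows of these 4 genes, 2 held a match, 1 at the second listed start of TCF7, 50 bases before the start, and 1 at the second listed start of TCF7L2, 133 bases before it. The same search matched 12% of all 35116 windows, 4 of 36 windows (11.1%) of other reported targets and 1 of 50 windows (2.0%) of partners and regulators. A match is a run of letters and not a bound site, and these windows leave out more distant enhancers. Shown are the first RNF43 window, as that of the only gene with a window that passed 1.5-fold in a knockdown, and the 2 windows with a match. Capitals mark the match, which in TCF7 is the motif on the opposite strand, and the RNF43 window has none.
RNF43 start 1, chr17:58417535-58417784, minus strand: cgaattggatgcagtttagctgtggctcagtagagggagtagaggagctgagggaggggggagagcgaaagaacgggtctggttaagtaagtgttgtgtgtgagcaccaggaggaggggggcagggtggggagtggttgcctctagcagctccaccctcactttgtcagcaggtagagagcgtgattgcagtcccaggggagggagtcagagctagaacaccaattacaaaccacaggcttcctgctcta
TCF7 start 2, chr5:134123368-134123617, plus strand: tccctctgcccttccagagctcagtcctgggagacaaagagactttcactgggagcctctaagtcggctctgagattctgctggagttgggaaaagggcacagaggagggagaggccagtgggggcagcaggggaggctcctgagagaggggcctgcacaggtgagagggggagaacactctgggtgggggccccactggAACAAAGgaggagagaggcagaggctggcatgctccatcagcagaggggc
TCF7L2 start 2, chr10:113126383-113126632, plus strand: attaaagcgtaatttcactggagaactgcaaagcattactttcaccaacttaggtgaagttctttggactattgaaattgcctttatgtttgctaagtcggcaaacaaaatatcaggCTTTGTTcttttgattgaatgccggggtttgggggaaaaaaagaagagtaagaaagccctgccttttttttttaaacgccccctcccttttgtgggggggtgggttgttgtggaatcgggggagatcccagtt

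Other genes of the pathway were read from 2 lists. Since these lists were chosen with earlier results of these data known, their counts beside all genes are descriptive only. Of 40 other reported targets of beta-catenin, 31 passed the filter. In KD1, 9 of these were at least 1.5-fold lower and 5 higher than NC, beside 12.3% and 11.2% of all genes. In KD2 7 were lower and 3 higher, beside 9.77% and 10.1%. In both knockdowns, 6 of 31 (19.4%) were lower, beside 8.05% of all genes, and 3 of 31 (9.68%) were higher, beside 6.35%. With normexp background correction these counts were 2 lower and 4 higher, beside 859 lower and 902 higher of all genes. Quantile normalization gave 7 lower and 3 higher, beside 1948 and 1280 of all genes. The mean over probes also gave 7 and 3, beside 1739 and 1339. Choosing the brightest probe only among probes well above background on all arrays gave 5 lower and 3 higher, beside 1465 and 1319 of the 19504 genes with such a probe, since FGF18 was well above background in NC alone. Their median log2 fold change was -0.09 in KD1 and -0.08 in KD2, against 0.02 and 0.04 over all genes, and the KD1 median was 0.05 when the probes of each gene were averaged. These targets thus lay on both sides of NC.

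The targets lower in both knockdowns were CCND1, SP5, ID2, MET, S100A4 and FGF18. CCND1, the cyclin that drives entry into the cell cycle, had a signal of 3206 in KD1, 2549 in KD2 and 4961 in NC, with log2 fold changes of -0.72 and -0.99. SP5, a transcription factor that represses other targets of the pathway, had a signal of 344, 297 and 487 on the same arrays, with log2 fold changes of -0.59 and -0.74. ID2, an inhibitor of basic helix-loop-helix factors, had log2 fold changes of -1.09 and -1.01 at the brighter probe and of -0.97 and -0.83 at the other. CCND1, SP5 and ID2 were thus lower on both knockdown arrays, ID2 by both of its probes. MET, the receptor of hepatocyte growth factor, had log2 fold changes of -0.68 and -0.75, and S100A4, a calcium-binding protein linked to cell motility, had -0.79 and -0.63. FGF18, a secreted growth factor, was well above background only in NC, with a signal of 39.6 against 18.3 and 13.5 in the knockdowns, and was at least 2.49-fold lower in KD2. In KD1 its own dim signal gave a log2 fold change of -1.20 with an error of 0.39.

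The targets higher in both were DKK1, JUN and SGK1. DKK1, a secreted inhibitor that blocks the LRP5 and LRP6 coreceptors, had a signal of 38035 in KD1, 36643 in KD2 and 21204 in NC, with log2 fold changes of 0.76 and 0.76. Among the feedback inhibitors of the set, NKD1 and RNF43 were also higher on both knockdown arrays, RNF43 past the threshold only in KD1. By their brighter probes, AXIN2 had log2 fold changes of -0.07 and -0.36 and ZNRF3 of 0.07 and 0.00. NOTUM gave no measurement. JUN, a subunit of the AP-1 transcription factor, had a signal of 2774 in KD1, 2291 in KD2 and 748 in NC, with log2 fold changes of 1.81 and 1.58. SGK1, a kinase that is induced by serum and glucocorticoids, had log2 fold changes of 1.54 and 1.00.

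Of 43 partners and regulators of beta-catenin, 39 passed the filter. In KD1, 2 of these were at least 1.5-fold lower and 7 higher than NC, beside 12.3% and 11.2% of all genes. In KD2 3 were lower and 7 higher, beside 9.77% and 10.1%. In both knockdowns, 2 of 39 (5.13%) were lower and 4 of 39 (10.3%) were higher, beside 8.05% and 6.35% of all genes. With normexp 2 were higher, while the count over all genes went from 1436 to 902. When the probes of each gene were averaged 1 was lower, while the count over all genes went from 1820 to 1739. Their median log2 fold change was 0.26 in KD1 and 0.24 in KD2, against 0.02 and 0.04 over all genes. Most of these genes were thus slightly higher than NC, and 7 of 39 passed the threshold upward in each knockdown.

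CTNNB1, which encodes beta-catenin, had a signal of 14449 in KD1, 12134 in KD2 and 13019 in NC by its brighter probe, which had 10 spots per array. Its log2 fold changes of 0.06 and -0.13 were within the error of 0.20, whereas a second probe with 1 spot had 0.42 and 0.38, so the probes of CTNNB1 disagreed by more than their error. APC, the scaffold whose loss starts most colorectal cancers, had log2 fold changes of -0.05 and 0.16 at the brighter probe, within the error of 0.21. Its second probe was not well above background in NC and had log2 fold changes of at least 0.20 and 0.51, with errors of 0.46 and 0.44. Its paralog APC2 had a signal of 339.8 in KD1, 316 in KD2 and 89.9 in NC, and was 3.56-fold and 3.44-fold higher, with log2 fold changes of 1.83 and 1.78. APC2 was thus higher on both knockdown arrays, while APC was within the error by its brighter probe. DVL2, a Dishevelled protein that relays the signal from Frizzled receptors and that NKD1 can bind, had a signal of 3633 in KD1, 3422 in KD2 and 1955 in NC, with log2 fold changes of 0.81 and 0.78. RSPO4, an R-spondin ligand, was dim, with a signal of 44.9 in KD1, 44.9 in KD2 and 26.8 in NC, and its log2 fold changes of 0.66 and 0.71 had errors of 0.31 and 0.30. Lower in both, besides LGR4, was WLS, the carrier of Wnt ligands to the cell surface. WLS had -0.82 and -0.67 by its brightest probe on the log2 scale, -0.41 and -0.01 by the second and -0.82 and -0.96 by the third, so that its second probe showed no difference in KD2.

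**Figure D4:**
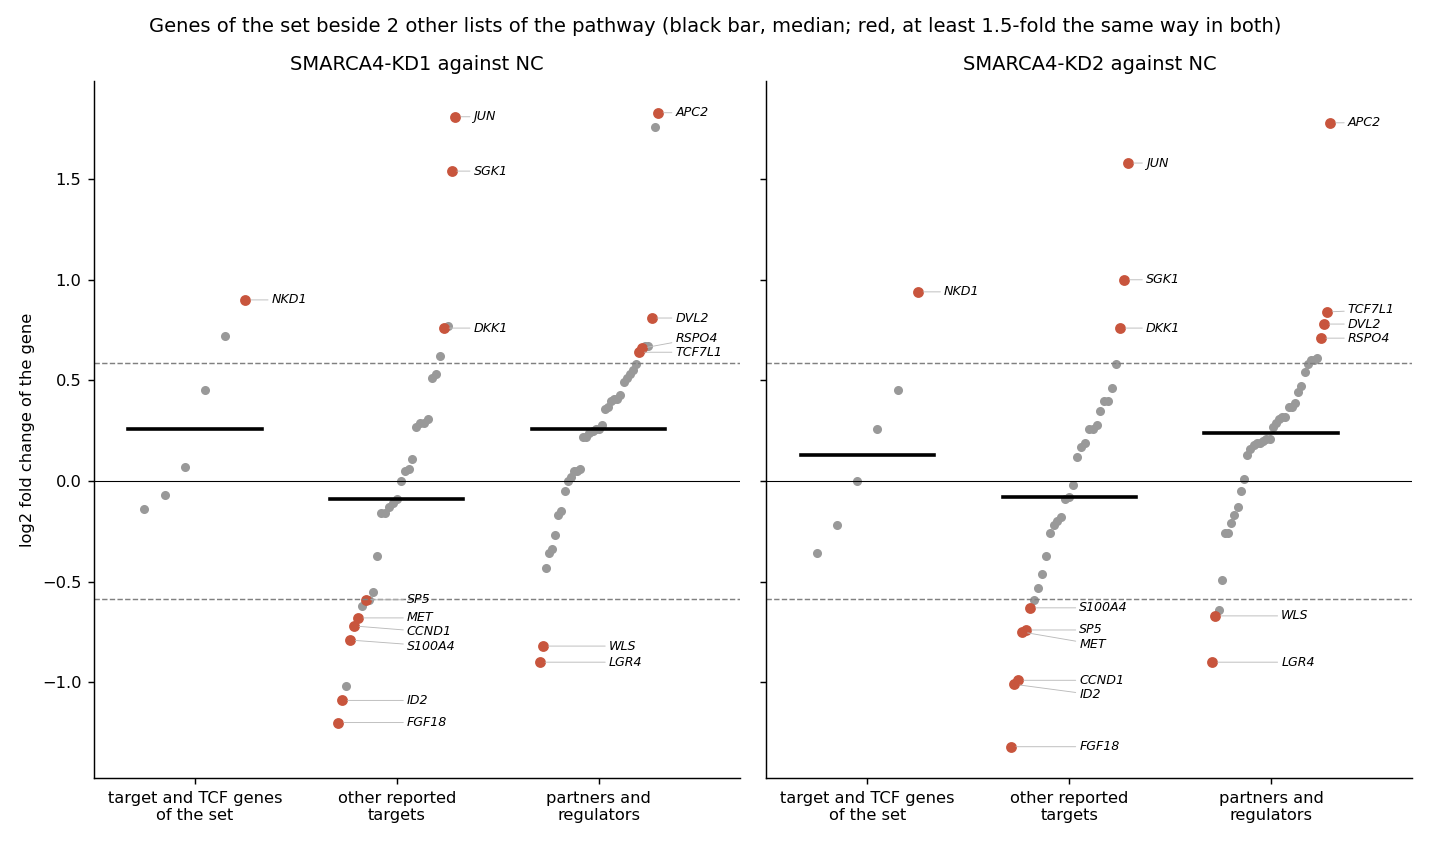
Log2 fold change against NC (vertical axis) of each gene with a value in the set and in the lists of other reported targets and of partners and regulators, in order of size within each list, for KD1 (left) and KD2 (right), with black bars at the medians, dashed lines at 1.5-fold and red points for genes past 1.5-fold the same way in both. The medians are 0.26, -0.09 and 0.26 on the left and 0.13, -0.08 and 0.24 on the right, and the points of FGF18 on both sides and the point at 1.76 among partners in KD1 rest on a value that was not well above background.

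Other ways of processing the arrays left most values of the 6 measured genes in place. All probes of these genes were well above background, so changing the filter or the raising of dim values could not move their fold changes. The 2 lists were processed in these other ways only for their counts and medians, not gene by gene. NKD1 was between 0.65 and 0.91 in KD1 and between 0.67 and 0.96 in KD2, past 1.5-fold under each setting. RNF43 was between 0.61 and 0.72 in KD1 and between 0.35 and 0.45 in KD2, on the same sides of 1.5-fold throughout. AXIN2 in KD1 was between -0.13 and 0.10, so its direction there depended on the setting, while in KD2 it stayed between -0.41 and -0.28.

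**Figure D5:**
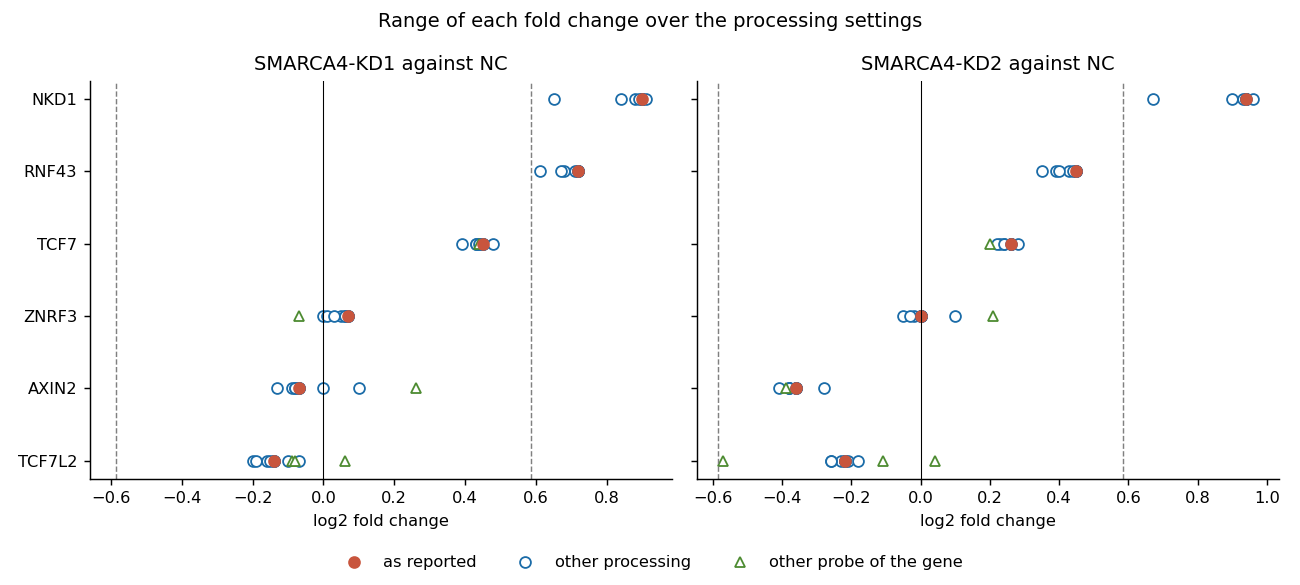
Log2 fold change against NC (horizontal axis) of the 6 measured genes under the reported setting (filled), under other processing (open circles) and by the other probes of the gene (triangles), for KD1 (left) and KD2 (right), with dashed lines at 1.5-fold. All NKD1 points lie beyond 1.5-fold, with the lowest at 0.65 and 0.67, and the AXIN2 points lie on both sides of 0 on the left.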

How the data were processed

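Per the file headers, the authors scanned 1-colour (Cy3) Agilent arrays with positions on hg19 and deposited the intensity of each spot, extracted with Agilent Feature Extraction 10.7.1.1 with background subtraction and no normalization between arrays. A deposited series-level table held the same linear intensity within 0.1% for all but 1 of 57871 single-spot probes, with column medians of 12.7, 13.0 and 12.1. Control spots and outlier spots were left out, and repeated spots were averaged. From log2 of the processed signal, the 75th percentile of the array over 58201 probes was subtracted. Dim values were raised to the array's lowest value well above background where they lay under it, so that fold changes against a raised value are limits, while dim values above it were kept as they were, and no fold was given where both sides were dim. Of the probes, 46.8%, 47.3% and 45.7% were well above background in KD1, KD2 and NC. A probe had to be well above background on 1 array or more, which 29334 were, and the brightest was used for each of 22620 genes, 5173 of them with several. Of the 17 probes of the set, 16 had an accession in the RefSeq table, all with the same symbol.

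The threshold of 1.5-fold is from the study's methods, which also required a P value. That second condition was not applied, since each condition had 1 array. Named are the 10 genes with every probe, SMARCA4, PRMT1, CTNNB1, TCF7L1, AXIN1, APC, LGR4, LGR6, NKD2, each list gene at least 1.5-fold apart the same way in both knockdowns, and cell type markers. The genes and lists were chosen with earlier results of these data known. Alternatives were the percentile or the median over probes measured on all arrays, quantile normalization, normexp with an offset of 50, the series-level table, the mean over probes, no filter or one on all arrays, no raising of dim values, 2-fold, and the other probes of each gene. Only the scaling and the 1.5-fold calls in both knockdowns were tested on simulated data. In these the changed genes were well above background, and the noise was smaller than the spread between the knockdown arrays. The fold changes of dim probes, the calls by the software error and the other settings were not tested in this way. R 4.3.3 with limma 3.58.1, Python 3.11.15, numpy 2.4.6, pandas 2.3.3 and matplotlib 3.10.9 were used. The sequence of the other interfering RNA is not reported here.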

Additional observations from a re-analysis of the deposited data

How the results depend on the processing

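Over the reported results and their alternatives, 247 of 270 values stayed within the software's error (fold changes), within 1.5 times (counts) or within the SD between the knockdown arrays over the root of the number of genes (medians), 23 moved further, and 0 of those past 1.5-fold reversed. This tally includes values that could not move. All probes of the 6 measured genes were well above background, so the filter and the raising of dim values left their fold changes as they were. Averaging over probes could not change genes with 1 probe, such as NKD1 and RNF43. The count of genes of the set lower in both knockdowns was 0 under each alternative, and their median stayed between 0.20 and 0.27 in KD1 and between 0.08 and 0.17 in KD2. At 2-fold, 0 genes of the set were higher in both, and of the other targets 1 was higher and 2 were lower, while of partners and regulators 1 was higher and 0 were lower, by the stricter rule itself. With normexp, 2 other targets were lower and 2 partners and regulators were higher in both, and the median of other targets in KD2 was -0.04. The median of other targets in KD1 was -0.04 with the filter on all arrays, 0.05, on the other side of 0, with the mean over probes, and -0.14 with quantile normalization or with the percentile over probes well above background, which also gave -0.12 in KD2. For partners and regulators that percentile gave medians of 0.20 in KD1 and 0.19 in KD2, and quantile normalization gave 0.19 in KD2. With the mean over probes, 1 partner was lower in both. For these shifts, apart from the 2-fold rule, the cause was not tested.

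At least 1.5-fold in both knockdowns, 1820 of all genes were lower and 1436 higher, against 477 and 330 at 2-fold and 859 and 902 with normexp. The median of all genes was between -0.04 and 0.05 under all settings. Dropping the filter gave the same values, since probes dim on all arrays have no fold. Signals near background limit NOTUM, LGR5, ASCL2 and LEF1, for which these arrays cannot show a difference. No paired analysis was possible because each condition had 1 array.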
